A study of Mus musculus with 16 samples.

Results

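The mRNAs of 10 enzymes were followed in the mouse myoblast line C2C12, which proliferates in rich serum and forms myotubes once serum is lowered. They are G6pdx, Pgls and Pgd of the oxidative pentose phosphate pathway, Rpia, Rpe, Tkt and Taldo1 of its non-oxidative arm, the glycerol-3-phosphate dehydrogenases Gpd1 and Gpd2, and the cytosolic malic enzyme Me1. The genes were chosen by name from the 35275 genes of the expression table, and G6pdx, Pgd, Tkt and Gpd2 were singled out as reported targets of the microRNAs miR-1 and miR-206. Of the 10 genes, 9 reached a mean of 0.5 FPKM (fragments per kilobase of gene, relative to all fragments of the library) and were tested among 11832 genes. Gpd1 did not reach it and is described only by its values.

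All cells were C2C12 myoblasts labelled PAX7 negative. The control groups came from 2 wild-type populations, and the knockout groups (tKO) from 2 clones in which miR-206 and both miR-1a genes (miR-1a-1, miR-1a-2) were knocked out, so each tKO line is a single clone. Growth medium (GM) held 20% fetal bovine serum, and cells were taken before confluence. Differentiated cells (DM3) had spent 3 days in 2% horse serum. The 4 groups are called control GM, control DM3, tKO GM and tKO DM3. A group held 4 libraries, from 2 lines with cultures 1 and 2 of each, and values are given in the order line 1 culture 1, line 1 culture 2, line 2 culture 1, line 2 culture 2. Depth was 22642563 to 56585952 fragments per library.

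The pentose phosphate pathway branches from glycolysis at glucose-6-phosphate. Its oxidative arm yields NADPH, which cells use for reductive synthesis and for keeping glutathione and thioredoxin reduced, and its non-oxidative arm exchanges ribose-5-phosphate, the sugar of nucleotides, with glycolytic intermediates. The glycerol phosphate shuttle passes electrons from cytosolic NADH to the respiratory chain through a cytosolic enzyme (Gpd1) and a mitochondrial one (Gpd2), while Me1 makes NADPH from malate. miR-1 and miR-206 are muscle microRNAs that share a seed, the stretch at the 5′ end that pairs with sites in 3′ UTRs and lowers mRNA stability and translation.

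The microRNA and the seed matches in the reported targets are shown because the knockout removed miR-206. Whether the matches account for any difference between genotypes was not tested. In the RefSeq sequence of miR-206 (GRCm38.p6, chr1:20679055-20679076, plus strand), capitals mark the seed, bases 2 to 8. In the gene sequences (GRCm38, 3′ UTRs of GENCODE release M21, read along the transcript), capitals mark the match to it, in windows of 30 bases. The mature miR-1a sequence was not used here.
mmu-miR-206-3p: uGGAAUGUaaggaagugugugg
G6pdx first site, chrX:74409979-74410008, minus strand: taaacccagctACATTCCtcaaataccagg
G6pdx second site, chrX:74409662-74409691, minus strand: agtgctactagACATTCCtcctcaccagat
Tkt first site, chr14:30573534-30573563, plus strand: gggtgaactacACATTCCAgggaggttctg
Tkt second site, chr14:30574575-30574604, plus strand: actttagaaggCATTCCActtggctgagtg
Gpd2 strongest site, chr2:57367649-57367678, plus strand: aacactggaaaACATTCCAaaacttaagat

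An 8-base match was ACATTCCA, the 7-base matches were ACATTCC and CATTCCA, and the 6-base match was CATTCC, searched on the transcript strand with the longest match counted at each place. G6pdx held 2 matches of 7 bases in a 3′ UTR of 724 bases. Tkt held 1 match of 8 bases and 1 of 7 in 1208 bases, and Gpd2 held 1 of 8 bases and 1 of 6 in 3242 bases. Pgd, the fourth reported target, held none of these letters in its annotated 3′ UTR of 653 bases. Among the other genes, Pgls held 1 match of 7 bases, close to the end of its 3′ UTR, and Rpe held 1 of 7 and 1 of 6 bases. Rpia, Taldo1, Gpd1 and Me1 held none. Of 10811 tested genes with an annotated 3′ UTR, 4.75% held an 8-base match and 20.1% an 8-base or 7-base match. A match is a description of the letters and does not show binding.

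The identity of the cells was checked first. The summed FPKM of 10 myotube markers was 32.1 to 99.0 in the GM libraries and 553 to 1714 in the DM3 libraries, and that of 8 proliferation markers was 460 to 614 in GM and 63.9 to 172 in DM3. Within tKO DM3, both libraries of culture 2 had a low sum of myotube markers, 553 and 563. The sums were 1714 and 1548 in culture 1 and 1168 to 1683 in the controls. Differences of the enzymes between genotypes in DM3 are therefore given within culture 1 and within culture 2 as well. Of the myotube markers, Actn2 did not exceed 0.227 FPKM in any library. The DM3 sums rested mostly on Acta1, Des, Mylpf and Tnnt3, and the markers did not all go the same way. Tnnt3 was lower in every tKO DM3 library (69.2 to 140 FPKM) than in control DM3 (187 to 259). Myh3 was at 15.8 to 79.5 in tKO DM3 and 7.14 to 16.1 in control DM3. Myog was at 3.89 to 20.4 in tKO DM3 and 2.35 to 8.65 in control DM3. Adipocyte markers summed to 3.36 to 15.6 FPKM, with Lep at 0 in every library and Adipoq at or under 0.0964. Fabp4 and Pparg reached the highest levels on this list. Fabp4 varied widely among the tKO GM libraries, from 0.583 up to 11.5 FPKM. Pparg was detected in every library, lowest at 2.06 (a tKO DM3 library) and highest at 5.76 (a control GM library). Macrophage markers summed to 0.712 to 4.07, endothelial markers to at most 0.483 and Schwann cell markers to at most 0.564. The 5 fibroblast and matrix markers (Pdgfra, Dcn, Lum, Col3a1, Dpt) were abundant through Col3a1 and moved with stage and genotype. They summed to 442 to 553 FPKM in control GM and 1151 to 1490 in control DM3. In tKO cells they summed to 149 to 488 in GM, lowest in clone 1 culture 2, and 1313 to 1705 in DM3. These sums were almost all Col3a1, and members of the list went opposite ways. Col3a1 was at 1298 to 1697 in tKO DM3 and 1120 to 1452 in control DM3. Dcn (5.36 to 14.3 in tKO DM3, 25.2 to 34.4 in control DM3) and Pdgfra (0.891 to 2.48 and 2.62 to 4.58) were lower in tKO DM3 without overlap. Lum and Dpt did not exceed 1.73. The part of these markers in the results below was not tested. Levels of miR-206 and miR-1a were not analysed here, and the knockout was taken from the labels.

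In control cells in GM, Taldo1 had the highest level of the 10 genes (122 ± 8.05 FPKM, SD, n = 4), and Pgd (79.6 ± 9.26), G6pdx (60.3 ± 11.2), Tkt (35.8 ± 2.32), Pgls (34.7 ± 2.32), Me1 (32.6 ± 2.90), Gpd2 (22.7 ± 2.68), Rpe (13.5 ± 0.817) and Rpia (4.08 ± 0.777) followed. FPKM is a level per length, so these levels can be set beside each other. In this order the libraries of Pgd and G6pdx overlapped, as did those of Tkt, Pgls and Me1, and the other neighbours did not. In control DM3 the order was Taldo1, Tkt, Me1, Pgd, Pgls, G6pdx, Rpe, Gpd2, Rpia, and G6pdx had dropped below Pgls. Gpd1 was lowest in all 4 groups. In tKO DM3 the order was Taldo1, Tkt, Pgd, Me1, G6pdx, Pgls, Rpe, Gpd2, Rpia, and each gene from Taldo1 to G6pdx overlapped the next in its libraries.

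**Figure D1:**
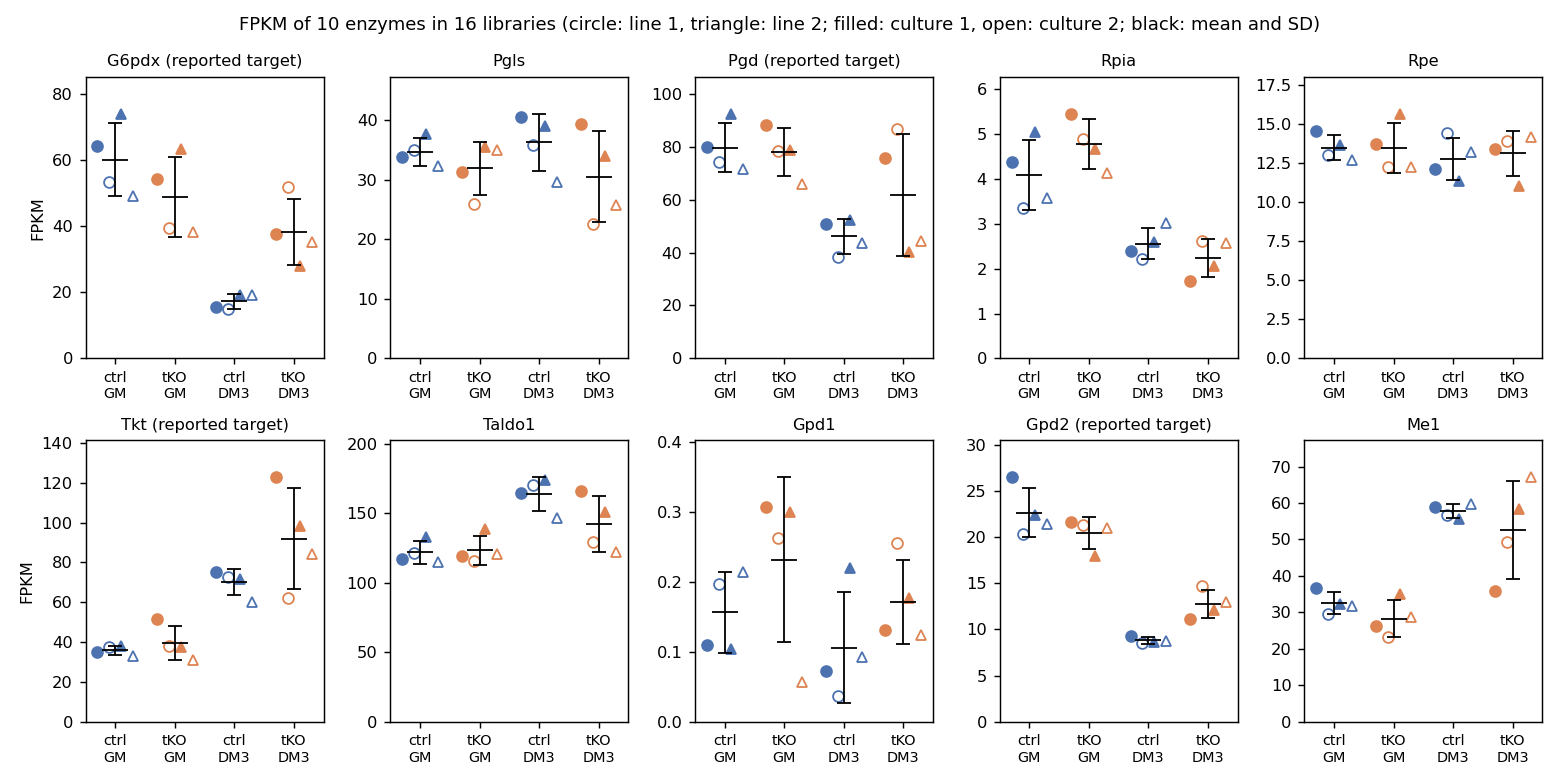
FPKM of the 10 enzymes (vertical axes from 0, each gene on its own scale) in the 16 libraries by group, with black bars for the mean and SD over 4 libraries. Circles are line 1, triangles line 2, filled symbols culture 1 and open symbols culture 2. The 4 tKO DM3 libraries of G6pdx (28.1 to 51.8) and of Gpd2 (11.1 to 14.8) lie above all 4 control DM3 libraries.

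In control cells, differentiation lowered 2 of the 3 oxidative enzymes and raised 2 of the 4 non-oxidative ones. G6pdx, Pgd, Rpia and Gpd2 fell from GM to DM3, and Tkt, Taldo1 and Me1 rose. These 3 rises stand against 23.2% of all tested genes called higher, and the 4 falls against 38.3% called lower. A call is an adjusted p under 0.05 in limma, with Benjamini-Hochberg adjustment over all 11832 genes. Since most tested genes were called in one direction or the other, the number of calls is not read as a result about these enzymes. The median change of all genes was -0.15 on the log2 scale in control and -0.12 in tKO cells, and 0.012 and 0.014 after median-of-ratios scaling. With that scaling the same 7 enzymes were called in the same directions in controls. Within each culture number alone the 7 changes had the same directions, and that of Rpia was -0.70 in culture 1 and -0.31 in culture 2. In bulk RNA, fewer cells of a type and less RNA per cell cannot be told apart.

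G6pdx, glucose-6-phosphate dehydrogenase, catalyses the committed, NADPH-yielding first step. Its gene (ENSMUSG00000031400) spans chrX:74409483-74429194 on the minus strand in the deposited table. It was at 64.2, 53.4, 74.1 and 49.3 FPKM in control GM and at 15.7, 15.1, 19.3 and 19.2 in control DM3. All 4 control libraries were lower after differentiation, with a 3.48-fold difference of means. On the log2(FPKM + 1) scale the change was -1.73 (SE 0.19, limma adjusted p = 1.2e-06). Pgls, 6-phosphogluconolactonase, which opens the lactone that G6pdx makes, stood at 34.7 ± 2.32 FPKM in control GM and 36.3 ± 4.79 in control DM3 (SD, n = 4), a change of 0.06 with a 95% interval of -0.27 to 0.38. Pgd, phosphogluconate dehydrogenase, yields the second NADPH. It was at 80.1, 74.3, 92.4 and 71.6 FPKM in control GM and at 50.9, 38.1, 52.3 and 43.6 in control DM3, 1.72-fold lower without overlap (log2 change -0.77, SE 0.20, limma adjusted p = 0.0032).

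Of the non-oxidative enzymes, Rpia, the isomerase that makes ribose-5-phosphate, was at 4.37, 3.35, 5.05 and 3.57 FPKM in control GM and 2.40, 2.21, 2.60 and 3.02 in control DM3. The control groups did not overlap and Rpia was lower by 0.51 on the log2 scale (limma log2 change -0.51, adjusted p = 0.00381). Rpe, the epimerase that makes xylulose-5-phosphate, varied little, with group means between 12.8 and 13.5 FPKM. Its 16 libraries ranged from 11.01 to 15.7 FPKM, and it was called in no comparison. Tkt, transketolase, which moves 2-carbon units between sugars, went the other way. It was at 34.8, 37.3, 38.1 and 33.0 FPKM in control GM and at 75.3, 72.8, 71.9 and 60.3 in control DM3, 1.96-fold higher in the means (log2 change 0.95, SE 0.17, limma adjusted p = 0.000198). Taldo1, transaldolase, was at 122 ± 8.05 FPKM in control GM and at 164 ± 12.1 in control DM3 (SD, n = 4), a rise of 0.42 on the log2 scale (limma adjusted p = 0.00288).

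The levels of both arms were also set against each other within each library. The 3 oxidative genes made up 49.8% ± 1.89 of the summed FPKM of the 7 pathway genes in control GM and 28.6% ± 2.04 in control DM3 (SD, n = 4), with no overlap between these groups. The ratio of G6pdx to Tkt went from 1.68 ± 0.256 to 0.251 ± 0.0538. In tKO cells the oxidative share was 46.6% ± 1.25 in GM and 34.3% ± 6.65 in DM3, and the ratio was 1.25 ± 0.310 and 0.462 ± 0.256. The tKO DM3 shares of 33.4, 43.7, 28.1 and 32.1% overlapped control DM3 (25.5 to 29.9%). So did the tKO DM3 ratios of 0.307, 0.835, 0.285 and 0.419 (control DM3 0.207 to 0.319). Clone 1 culture 2, a library with a low sum of myotube markers, was highest in both. The summed FPKM of all 10 genes differed less between groups, from 389 ± 36.1 in tKO GM to 445 ± 40.8 in tKO DM3. No test was run on these shares and sums.

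Gpd2 (ENSMUSG00000026827, chr2:57237635-57370719, plus strand), the mitochondrial glycerol-3-phosphate dehydrogenase, was at 26.5, 20.4, 22.4 and 21.4 FPKM in control GM and at 9.32, 8.58, 8.65 and 8.72 in control DM3. The DM3 values lay close together and all were lower than any GM value, with a 2.57-fold difference of means (log2 change -1.26, SE 0.11, limma adjusted p = 6.9e-08). Gpd1, its cytosolic partner in the shuttle, was barely detected, at 0.0371 to 0.307 FPKM or 5 to 27 fragments in the 16 libraries, and its groups overlapped. Its paralog Gpd1l was at 13.02 ± 1.24 FPKM in control GM and 12.5 ± 1.11 in control DM3 (SD, n = 4). Me1 was at 36.6, 29.7, 32.2 and 31.7 FPKM in control GM and at 58.9, 56.7, 55.6 and 59.6 in control DM3. Its control libraries did not overlap between the stages, and the rise was 1.77-fold (log2 change 0.81, SE 0.16, limma adjusted p = 0.000319).

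In tKO cells, 2 of these 9 enzymes rose with differentiation and 2 fell, where 24.9% of all tested genes were called higher and 36% lower. Tkt rose by 1.17 and Me1 by 0.85 on the log2 scale, against 0.95 and 0.81 in controls, and neither difference between the genotypes' changes was called (0.23 and 0.04). Gpd2 fell by 0.65 and Rpia fell by 0.84. Within culture 1 and culture 2 these changes were 1.302 and 1.048 for Tkt, 0.58 and 1.13 for Me1, -0.72 and -0.58 for Gpd2, and -1.06 and -0.61 for Rpia. G6pdx changed by -0.35 (SE 0.19, limma adjusted p = 0.127), Pgd by -0.40 (SE 0.20, adjusted p = 0.0976) and Taldo1 by 0.20 (adjusted p = 0.13), and none of the 3 passed. The cultures differed most in G6pdx, which was at -0.83 within culture 1 and at 0.14, with the opposite sign, within culture 2. In culture 2 the tKO DM3 libraries had a low sum of myotube markers. Pgd was at -0.59 within culture 1 and -0.21 within culture 2, and Taldo1 at 0.30 and 0.092. With median-of-ratios scaling Taldo1 was called as higher in tKO cells too, which made 3 rises. G6pdx was called as lower in tKO cells without tKO DM3 clone 1 culture 2 (-0.50, adjusted p = 0.0285), without clone 1 (-0.63, adjusted p = 0.0401) or when culture numbers entered the fit as blocks, separately by stage (adjusted p = 0.0461). Pgd was called as lower without tKO DM3 clone 1 culture 1 (-0.52, adjusted p = 0.0405), without culture 2 of that clone (-0.58, adjusted p = 0.0128) or without clone 1 (-0.76, adjusted p = 0.00212). Without the libraries of control line 1, Pgd, Taldo1 and Rpia were no longer called in controls, which left 4 calls, and without control line 2 Pgd was not called (adjusted p = 0.0644).

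**Figure D2:**
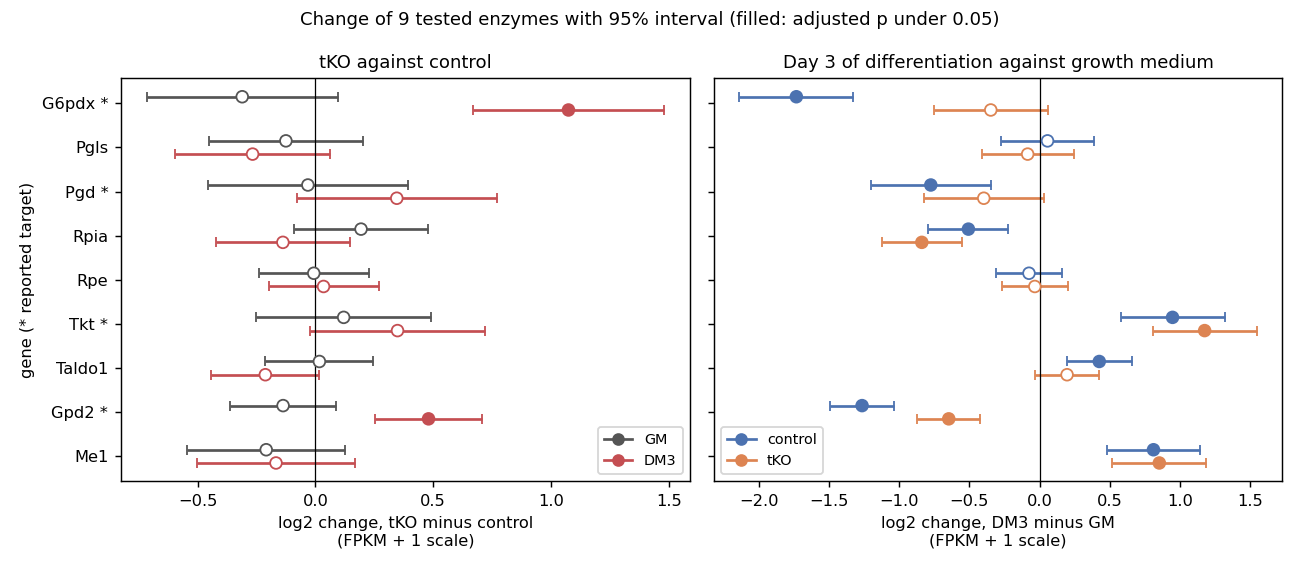
Log2 change (FPKM + 1 scale, horizontal axes) of the 9 tested enzymes with 95% intervals from limma, tKO minus control at the left and DM3 minus GM at the right, with filled points for an adjusted p under 0.05. G6pdx (1.07) and Gpd2 (0.48) are the filled points between genotypes in DM3, and none is filled in GM.

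In growth medium none of the 9 enzymes was called between genotypes by limma, where 2.06% of all tested genes were, and none had an unadjusted p under 0.05. limma with voom on fragment numbers also called 0. No enzyme separated the 4 tKO from the 4 control GM libraries, which 14% of all tested genes did. G6pdx was at 54.4, 39.5, 63.5 and 38.2 FPKM in tKO GM, within and below the control range (log2 change -0.31, 95% interval -0.72 to 0.09). In both genotypes its culture 1 libraries were above its culture 2 libraries, and within each culture number both tKO libraries were below both controls (-0.23 in culture 1 and -0.39 in culture 2). Gpd2 was at 21.7, 21.3, 18.0 and 20.99 FPKM in tKO GM, a change of -0.14 with an interval of -0.36 to 0.09, and it was -0.29 within culture 1 and 0.017 within culture 2. For Tkt the change was 0.12 (interval -0.25 to 0.49) and for Pgd -0.03 (interval -0.46 to 0.39). These intervals do not show that the levels were equal.

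On day 3 of differentiation, 2 of the 9 enzymes were higher in tKO cells than in controls and none was lower, and both were reported targets. Of all tested genes, 2.02% were called higher and 3.38% in either direction. The same 2 enzymes were the ones whose 4 tKO libraries all lay outside the range of the 4 controls, which 8.52% of all tested genes did. The 4 reported targets had positive changes with a median of 0.41, and of the 5 other tested enzymes 1 was positive, with a median of -0.17. The median of all genes was 0.0077. Since the members were picked with earlier results of these data known, these counts are a description.

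G6pdx was at 37.7, 51.8, 28.1 and 35.3 FPKM in tKO DM3. The lowest of these, clone 2 in culture 1, was above the highest control DM3 library at 19.3. The means were 38.2 ± 9.93 and 17.3 ± 2.26 FPKM (SD, n = 4 each), a 2.21-fold difference. The log2 change was 1.07 (SE 0.19, 95% interval 0.67 to 1.48, limma adjusted p = 0.00434). A two-sided exact permutation test over the libraries gave p = 0.0286, the smallest that 4 against 4 allows, and 0.257 after adjustment over 18 tests. The libraries of a group came from 2 lines, and this test does not take lines as units. With line averages as units the limma adjusted p was 0.0396. Within culture 1 the difference was 0.87 and within culture 2, where tKO cells had a low sum of myotube markers, it was 1.28. Clone 1 averaged 44.8 FPKM and clone 2 averaged 31.7, against 15.4 and 19.3 in the control lines. Without control line 1 the change was 0.92 and no longer passed (adjusted p = 0.311).

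Gpd2 was at 11.1, 14.8, 12.1 and 12.98 FPKM in tKO DM3, all above the 8.58 to 9.32 of the controls. Its means were 12.7 ± 1.54 and 8.82 ± 0.338 FPKM (SD, n = 4 each), 1.45-fold apart, and the log2 change was 0.48 (SE 0.11, 95% interval 0.25 to 0.71, limma adjusted p = 0.018). The exact permutation p over libraries, not lines, was again 0.0286, or 0.257 after adjustment. The difference was 0.34 within culture 1 and 0.62 within culture 2. The clones were alike, with line means of 12.9 and 12.6 FPKM. The call did not survive several of the alternatives. The adjusted p was 0.0735 with line averages as units, 0.107 with only the DM3 libraries, 0.311 without control line 1 and 0.314 without control line 2. It was 0.0594 without control line 1 culture 2, 0.0535 without control line 2 culture 1 and 0.0616 without tKO clone 1 culture 2, with changes of 0.47, 0.47 and 0.41.

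Pgd and Tkt, the other reported targets, did not pass. Pgd was at 75.7 and 86.5 FPKM in tKO clone 1 and at 40.1 and 44.5 in clone 2, so that clone 1 lay above all control DM3 libraries (38.1 to 52.3) and clone 2 among them. The change over both clones was 0.35 (SE 0.20, 95% interval -0.08 to 0.77, limma adjusted p = 0.404). Without clone 2 it was 0.81 with an adjusted p of 0.00507, and without clone 1 it was -0.12. Within culture 1 it was 0.095 and within culture 2 it was 0.60. Tkt was at 123, 62.0, 98.4 and 84.3 FPKM in tKO DM3 and 3 of these 4 were above every control, the exception being clone 1 in culture 2. Its change was 0.35 (SE 0.17, 95% interval -0.02 to 0.72, limma adjusted p = 0.33), 0.57 within culture 1 and 0.12 within culture 2. The wide spread of both genes leaves room for a change as large as that of Gpd2.

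The remaining enzymes had smaller changes in DM3, and their intervals included 0. Pgls was at 39.4, 22.6, 34.1 and 25.8 FPKM in tKO DM3 (log2 change -0.27, adjusted p = 0.403) and Taldo1 at 166, 129, 151 and 122 (log2 change -0.21, adjusted p = 0.339), by limma. In both, the culture 2 libraries of tKO cells were lower than those of culture 1. Within culture 1 the differences were -0.12 for Pgls and -0.10 for Taldo1, and within culture 2 they were -0.42 and -0.33. Rpia was at 1.73, 2.61, 2.07 and 2.57 FPKM (log2 change -0.14, with -0.27 within culture 1 and -0.0016 within culture 2). Me1 was at 35.8, 49.2, 58.3 and 67.1 FPKM, spread far wider than the controls at 55.6 to 59.6 (log2 change -0.17, 95% interval -0.50 to 0.17), and the change was -0.32 within culture 1 and -0.017 within culture 2. Rpe was at 0.046 and 0.022 within the cultures. Without clone 1 the sign of the change in Me1 turned, to 0.11.

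**Figure D3:**
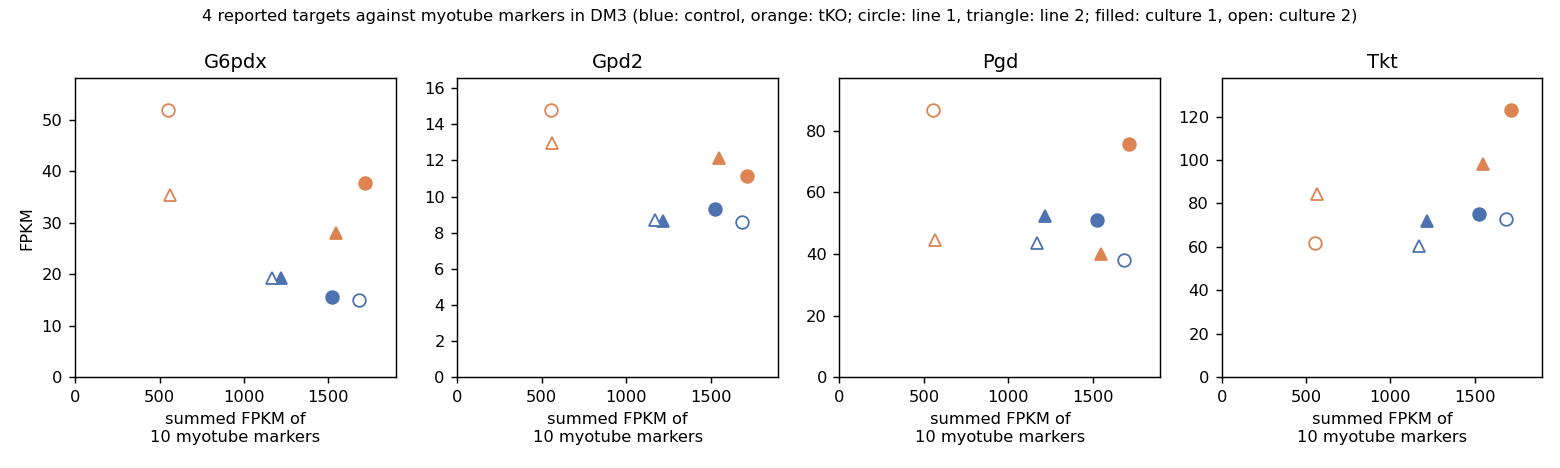
FPKM of the 4 reported targets (vertical axes) against the summed FPKM of 10 myotube markers (horizontal axes) in the 8 DM3 libraries, blue for control and orange for tKO. The tKO libraries, with marker sums of 553, 563, 1548 and 1714, lie above all control libraries in G6pdx and Gpd2. Control sums are 1168 to 1683, so no control lies near 553 and 563 for comparison. Within each clone both genes are higher in the library with the low sum. The clone 1 libraries of Pgd (75.7 and 86.5) lie apart from the rest.

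The difference between genotypes in DM3 minus that in GM was tested as an interaction. G6pdx was the 1 enzyme called (1.38, SE 0.27, limma adjusted p = 0.0468), where 0.254% of all tested genes were. In controls G6pdx differed by 1.73 log2 units between the stages, lower in DM3, and in tKO cells by 0.35. The value was 1.10 within culture 1 and 1.67 within culture 2. The call lay close to the threshold and was lost with voom (adjusted p = 0.0514), with a pseudocount of 0.1 (0.0533), with no filter (0.0882) and with line averages (0.205). It was also lost without control line 1, control line 2 or tKO clone 1, and when any 1 of 13 of the 16 libraries was left out, with adjusted p of up to 0.135. The exceptions were tKO GM clone 2 culture 1 and the culture 1 libraries of both clones in tKO DM3. Over all alternatives the change itself lay between 1.10 and 1.67. Gpd2 had an interaction of 0.62 (SE 0.15, adjusted p = 0.114; 0.63 within culture 1 and 0.60 within culture 2), which passed when tKO DM3 clone 1 culture 1 was left out (adjusted p = 0.0328).

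Lines of 1 genotype were compared as a yardstick, over both stages. Between the control lines limma called none of the 9 enzymes and 0% of all tested genes, with 55 genes at an unadjusted p under 0.05 and 0 enzymes called with voom. These 55 genes are far fewer than a share of 0.05 of the 11832 tested genes. The fit shared its spread over all 16 libraries, so these counts do not show how alike the control lines were. Between the tKO clones 7.22% of genes were called, among them 2 of the enzymes. Between genotypes 2.06% were called in GM and 3.38% in DM3, but these shares are not on a like scale with that of the clones. The clone comparison gave each line its own mean and joined both stages. The genotype comparisons were made within a stage, with differences between lines left in the spread. Pgd was lower in clone 2 by 0.56 on the log2 scale (limma log2 change -0.56, SE 0.15, adjusted p = 0.038). Me1 was higher in clone 2 by 0.46 (SE 0.11, adjusted p = 0.0282), with DM3 means of 42.5 FPKM in clone 1 and 62.7 in clone 2. G6pdx and Gpd2 changed by -0.20 and -0.08 between the clones and were not called. With TPM only Me1 was called, and with no filter neither was.

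Other genes of the same pathways were read from lists by function, with the genes tested in the same fit over all genes. As above, 2.02% of all tested genes were called higher in tKO DM3, and in control differentiation 23.2% were called higher and 38.3% lower. The counts of each list are given as a description beside these shares. Of the oxidative pentose phosphate list (G6pdx, Pgls, Pgd, H6pd and G6pd2), 4 were tested, and 2 were higher in tKO DM3, with a list median of 0.59. The second was H6pd, which carries out the first oxidative steps inside the endoplasmic reticulum. It was at 10.4, 9.01, 10.1 and 9.71 FPKM in control DM3 and at 18.6, 21.2, 16.5 and 16.7 in tKO DM3, without overlap and 1.86-fold apart (log2 change 0.83, SE 0.10, limma adjusted p = 0.000119). H6pd was called in DM3 under all alternatives with a test, and was at 0.72 within culture 1 and 0.94 within culture 2. It fell from GM to DM3 in controls (-0.36, adjusted p = 0.00602), which did not pass with median-of-ratios scaling (0.168) or without control line 1 (0.174) or 2 (0.0784), and it rose in tKO cells (0.69). Its interaction was 1.04 (adjusted p = 0.0045), lost with line averages (0.156), without control line 1 (0.915) and without control line 2 (0.352). G6pd2, an autosomal copy of G6pdx, did not exceed 0.0385 FPKM.

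Of the 12 tested genes of the non-oxidative arm and ribose use, none was called between genotypes at either stage. The list median in DM3 was -0.00014. Closest to the threshold was Rbks in GM, at 4.27 FPKM in tKO and 2.33 in control (log2 change 0.63, limma adjusted p = 0.0554). The transketolase paralogs Tktl1 (at most 0.0536 FPKM) and Tktl2 (0 in every library) did not pass the filter. In control differentiation 3 of the 12 rose and 7 fell, where 23.2% and 38.3% of all genes did. On the log2(FPKM + 1) scale the list changed most in Tkt (0.95), the ribokinase Rbks (-0.91) and Prps1 (-0.79), which makes phosphoribosyl pyrophosphate for nucleotides. This scale understates the change of Rbks, which had means of 2.33 FPKM in control GM and 0.770 in control DM3 and was at -1.485 with a pseudocount of 0.1, past Tkt at 0.96. Of the 6 tested genes of glycerol phosphate metabolism, Gpd2 was the 1 called between genotypes. Gpd1l had a change of -0.54 in tKO DM3 (adjusted p = 0.091). It was at 5.97 and 6.82 FPKM in clone 1, 11.4 and 9.73 in clone 2, and 11.9 to 14.1 in control DM3. Between the clones Gpd1l was called, higher in clone 2 (log2 change 0.52 over both stages, limma adjusted p = 0.0127). With differentiation of controls, the glycerol phosphate list moved most in Gpd2, the phosphatase Pgp (-0.72) and Gpam (0.45), the mitochondrial acyltransferase that begins glycerolipid synthesis. Gpam was not called without control DM3 line 2 culture 2 (adjusted p = 0.0515), without either control line (0.0815 and 0.255) or with TPM (0.0511), and Pgp was not called without either control line (0.1003 and 0.0732).

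Of 14 tested genes of other NADPH sources, 1 was higher in tKO DM3. Nadk, the kinase that makes NADP from NAD, was at 41.7 ± 7.24 FPKM in tKO and 29.0 ± 2.02 in control DM3 (SD, n = 4), a log2 change of 0.50 (limma adjusted p = 0.027), with 0.40 within culture 1 and 0.60 within culture 2. This call was lost without either control line (adjusted p = 0.59 and 0.223), without clone 1 (0.30, adjusted p = 0.123) and without 4 of the 8 DM3 libraries in turn, the culture 2 libraries of both control lines, control line 1 culture 1 and clone 1 culture 2. With control differentiation 4 of the 14 rose and 5 fell, against 23.2% and 38.3% of all genes. The largest changes on the log2(FPKM + 1) scale were in the folate enzymes Aldh1l2 (2.49), Aldh1l1 (2.02) and Mthfd1 (-1.79). Aldh1l1 went from a mean of 0.135 to 3.66 FPKM and Aldh1l2 from 10.05 to 60.4, and with a pseudocount of 0.1 Aldh1l1 was at 4.045, past Aldh1l2 at 2.59. The malate-aspartate shuttle, the other carrier of cytosolic NADH electrons, had no call between genotypes among 6 tested genes, and all 6 changes were negative in DM3, with a median of -0.18. In controls 3 of the 6 rose with differentiation, Mdh1 (1.20), Got1 (0.60) and Slc25a12 (0.34), where 23.2% of all genes did, while Gpd2 fell. Slc25a12 was not called without control line 1 (adjusted p = 0.097) or control line 2 (0.178). Got1 was at 0.96 within culture 1 and 0.23 within culture 2, and was not called without either control line (adjusted p = 0.159 and 0.142), with no filter (0.0552), without control GM line 1 culture 1 (adjusted p = 0.05001), without control DM3 line 1 culture 1 (0.0723) or without control DM3 line 2 culture 1 (0.0974).

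Of 17 tested NRF2 and antioxidant genes, 2 were higher in tKO DM3, against 2.02% of all genes, with 13 positive and a median of 0.17. Srxn1, which repairs overoxidised peroxiredoxins, was at 30.9 ± 11.2 FPKM in tKO and 15.4 ± 3.74 in control DM3 (SD, n = 4), a log2 change of 0.91 (limma adjusted p = 0.0367), with 0.79 within culture 1 and 1.02 within culture 2. Abcc1, an exporter of glutathione conjugates, was at 64.6 ± 10.6 and 44.6 ± 3.14 (log2 change 0.51, limma adjusted p = 0.0442), with 0.66 within culture 1 and 0.37 within culture 2. Both calls were lost when a control line or clone 1 was left out, with adjusted p between 0.101 and 0.689. Leaving out single DM3 libraries ended the call for Srxn1 in 6 of 8 cases, all but control line 2 culture 2 and clone 2 culture 1, and for Abcc1 in 7 of 8, all but clone 2 culture 2. Line averages and a fit of only the DM3 libraries also ended the calls for Nadk, Srxn1 and Abcc1, as did no filter for Srxn1 and Abcc1 and median-of-ratios scaling for Abcc1. In control differentiation 4 of the 17 rose and 8 fell, against 23.2% and 38.3% of all genes. The largest changes were in Srxn1 (-1.80), the glutathione reductase Gsr (-1.59) and Gclc (-1.37), which starts glutathione synthesis. Of 13 tested NADPH-using reductases none was called between genotypes. With control differentiation 4 of the 13 rose and 4 fell, among them Gsr and Srd5a3 (-1.54), against the same shares of all genes.

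**Figure D4:**
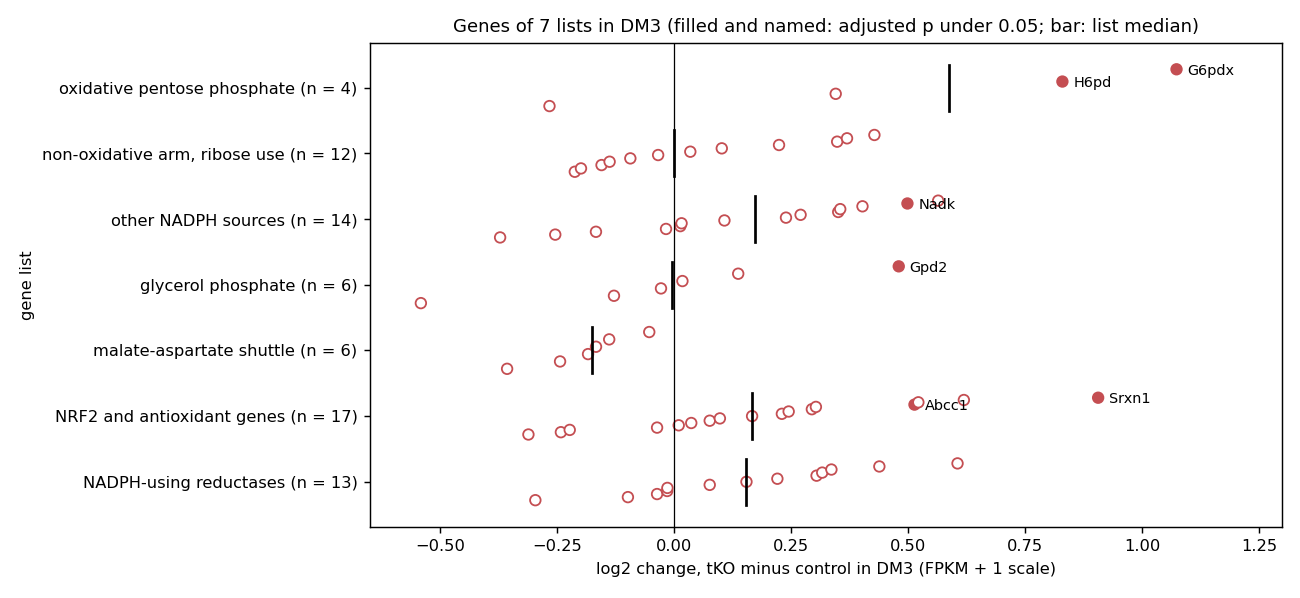
Log2 change between tKO and control in DM3 (FPKM + 1 scale, horizontal axis) of each tested gene in 7 lists by function, with black bars for the list median and filled, named points for an adjusted p under 0.05. G6pdx (1.07), Srxn1 (0.91) and H6pd (0.83) lie farthest to the right, and Gsr and other genes held by 2 lists appear in both.

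After the mean of each stage was taken from every library, pairs of the 9 enzymes had Pearson's r between -0.72 and 0.86. The 16 libraries share lines, cultures and depth. Differences between genotypes were not taken out and enter every r, as for G6pdx and Gpd2, which were both higher in tKO DM3. The highest r was between Pgls and Taldo1 (0.86), and G6pdx followed Gpd2 (0.76) and Pgd (0.69). The lowest was between Taldo1 and Gpd2 (-0.72). By the same measure over all tested genes, those most like G6pdx were Fhod1, Gpr125 and Emp2 (0.93 each). Coq3 (0.91), Dync1i1 (0.90) and Ada (0.88) were most like Pgd, and Tprn (0.89), Ndrg1 (0.83) and Zdhhc8 (0.81) most like Tkt. Ywhaz (0.89) and Unc45a (0.88) were among those most like Gpd2. These are the highest of many correlations and are given as a description.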

How the data were processed

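Poly(A)-selected RNA of 16 libraries was sequenced on an Illumina HiSeq instrument, per the labels' protocols. The authors deposited 1 table of FPKM values per gene and library, with gene lengths and positions and no pooling. The submitters' processing notes name STAR, DESeq and mm10 without a role; the annotation release and use of strand are not given in the sources used here, so overlapping and antisense genes cannot be told apart. Groups came from the sample titles. FPKM times gene length gave whole multiples of 1 step per library for 100% of values, which gave the fragment numbers and the depth of 22642563 to 56585952. Intervals cover the spread between libraries. The titles mark the cultures with BR and a number, and do not spell BR out. Nothing else in the labels says that the cultures were independent. The p-values therefore measure only the spread between these libraries, which may be technical.

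Genes with a mean of at least 0.5 FPKM were tested on log2(FPKM + 1), which understates changes of low genes, with limma 3.58.1 (trend and robust moderation) in R 4.3.3, in 1 fit over the 16 libraries. p-values were adjusted by Benjamini-Hochberg over 11832 genes and called under 0.05. Line contrasts had stage within genotype as a covariate. The procedure was also run on simulated data with independent noise and no effects of line, clone or culture. That run therefore does not give the error rate in these data. Python 3.11.15, pandas 2.3.3 and scipy 1.17.1 were also used. All 10 members were named whatever their values, with each list gene called between genotypes and the 3 list genes with the largest change in control differentiation. The members and lists were chosen with earlier results of these data known. Alternatives were a pseudocount of 0.1, no filter or one of 5 FPKM, TPM, median-of-ratios scaling, voom on fragment numbers, the culture number as a block, line as a random effect or as unit, only the compared libraries, and leaving out each line or library. Some results that the naming rule covers are not reported here.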

Additional observations from a re-analysis of the deposited data

Results flagged for a closer look

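In G6pdx the difference between tKO and control depended on the stage, by a test of the difference itself. It was 1.38 log2 units higher in DM3 than in GM, with changes of 1.07 and -0.31 in those stages, and the limma adjusted p was 0.0468. The call was lost when any 1 of 13 of the 16 libraries was left out (adjusted p up to 0.135), with voom (0.0514), a pseudocount of 0.1 (0.0533), no filter (0.0882) or line averages (0.205), and without control line 1, control line 2 or tKO clone 1. Clone 1 and clone 2 both had higher G6pdx than either control line in DM3.

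In Gpd2 the lowest of the 4 tKO GM libraries, clone 2 in culture 1, stood apart at 18.0 FPKM, while the others lay between 20.99 and 21.7. This was 1 of 36 sets of 4 libraries examined for a library far from the rest, and chance gives about 1 in 20. Without that library Gpd2 was still called as lower in tKO DM3 than in tKO GM.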

How the results depend on the processing

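Of 1855 repeats of these results under another setting, 1678 kept their direction and their side of the threshold, or moved by less than 1 SD, and 46 with a test changed sign. All these sign changes were in differences that had not passed the test. The cause of each change was not tested. In tKO against control in DM3, the 2 enzymes called became 1 with line averages, 1 with only the compared libraries, 0 without control line 1, 1 without control line 2, and 1 to 2 when single libraries were left out. In control differentiation 7 became 4 without control line 1. In the interaction 1 became 0 with a pseudocount of 0.1, no filter, voom or line averages and without control line 1, control line 2 or tKO clone 1, and single libraries gave 0 to 2. Between the clones 2 became 0 with no filter and 1 with TPM. The sign turned in GM for Pgd (0.0060 without control line 2, 0.069 without clone 2, -0.093 to 0.044 over single libraries), Pgls (0.022 without clone 1), Tkt (-0.066 without clone 1, -0.014 to 0.22 over single libraries), Taldo1 (-0.039 with TPM, -0.0098 without control line 1, -0.052 without clone 2, -0.040 to 0.060 over single libraries) and Rpe (0.014 with median-of-ratios scaling, 0.024 without control line 1, 0.037 without clone 1, -0.077 to 0.033 over single libraries). In DM3 it turned for Pgd (-0.12 without clone 1), Rpe (-0.017 without control line 2, -0.025 without clone 1, -0.017 to 0.11 over single libraries) and Me1 (0.11 without clone 1, -0.29 to 0.00091 over single libraries). In differentiation of controls it turned for Pgls (-0.034 without control line 1) and Rpe (0.12 with median-of-ratios scaling). In tKO cells it turned for Pgls (0.080 with median-of-ratios scaling, 0.067 without clone 2, -0.22 to 0.042 over single libraries) and Rpe (0.12 with that scaling, 0.069 without clone 2, -0.075 to 0.041 over single libraries). In the interaction it turned for Pgls (0.011 without clone 2), Rpe (-0.062 without clone 1, -0.0095 to 0.12 over single libraries) and Me1 (-0.064 without clone 2, -0.086 to 0.21 over single libraries). Between the clones it turned for Taldo1 (-0.0067 with median-of-ratios scaling), Rpia (0.0062 with TPM) and Rpe (0.063 with TPM). Values within 1 culture number, which have no test, also turned sign. Within culture 2 these were G6pdx in tKO differentiation (0.14), Gpd2 (0.017), Tkt (-0.026) and Taldo1 (-0.0042) in GM, Pgls (-0.038) and Rpe (0.094) in control differentiation and Rpe in tKO differentiation (0.18). Within culture 1 they were Rpe in GM (0.053), Pgls in tKO differentiation (0.13), and Rpe (-0.0063) and Me1 (-0.14) in the interaction.

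The labels share the culture numbers between groups without saying that they pair the cultures. After each gene was centred within its group, same-numbered control and tKO cultures deviated together in GM, but with mixed signs in DM3. Their mean r over genes was 0.25 in GM (range 0.096 to 0.45) and 0.19 in DM3 (range -0.22 to 0.56). It was -0.25 and -0.19 for different numbers, but the centring makes these values nearly mirror the others, so they add no evidence. In GM every same-numbered pair was positive, a hint of pairing from the data, but not every pair at both stages passed 0.1, and the numbers were taken as names only. When the fit took that number as a replicate block, the counts stayed at 0, 2, 7, 4, 1, 0 and 2 in the order GM, DM3, control and tKO differentiation, interaction, control lines and clones. With the number as a block within each stage, 5 were called in tKO differentiation, as G6pdx passed (adjusted p = 0.0461), and no other call among the enzymes changed. Gpd1, at 5 to 27 fragments, is the one enzyme for which depth limits what can be said.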
